A study of Mus musculus with 483 samples.

Results

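The genes described here are 39 integrin subunits, cadherins, catenins, tight junction and junctional adhesion genes, selectin and contact genes, and tetraspanins. They were taken by name from the 46078 genes of a single-cell read count table, as a list of adhesion genes, and not by their measured values. Of the 39, 34 had a read in at least 5% of cells and are called measured, against 15204 of all genes. The measured members were 15 of 19 integrins, 6 of 6 cadherins and catenins, 8 of 8 junctional genes, 2 of 3 contact and selectin genes and 3 of 3 tetraspanins. Itga7, Itgam, Itgb7, Itgb8 and Selp had reads in fewer cells and were described by level only.

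The study profiled single mouse cells from the aorta-gonad-mesonephros (AGM) region, the embryonic site where blood stem cells arise, by Smart-seq2, a full-length RNA sequencing method. All cells were sorted as CD31+kit+CD45-, that is, with CD31, an endothelial surface protein, with Kit, the receptor of stem cell factor, and without CD45, a protein of blood cells. Of the 483 cells, 49.5% were labelled Ctrl and 50.5% treated with aDll4, a term the labels leave unexplained, in a study whose title names Dll4, a Notch ligand, and the entry of hemogenic cells into clusters inside the aorta. The labels give no genotype, strain, age, embryo, culture or dose, so each treatment counts as 1 sample and no difference below has a test or a p-value. They place every cell in 1 of 7 ICGS clusters, an expression clustering deposited with the data.

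Integrins are receptors made of 1 alpha and 1 beta chain that bind cells to extracellular matrix or to other cells, and the pairing decides the ligand. Endothelial cells hold to each other through adherens junctions, where VE-cadherin (Cdh5) is tied to the cytoskeleton by catenins, and through tight junctions built from claudins, occludin and junctional adhesion molecules. When a hemogenic endothelial cell becomes a blood cell it leaves this layer, first rounding up within an intra-aortic cluster.

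The cells' labelled type, hematopoietic stem cells, was checked against marker lists. Clusters 1 to 3 held 395 cells, 67 of them in cluster 3, and the summed level of 8 endothelial markers there was 5937 CPM (counts per 1000000 gene-assigned reads). In the same clusters 9 blood markers summed to 331 CPM, most of it from the actin bundler Lcp1 (220.7 CPM) and the lysosomal protein Laptm5 (88.5 CPM), while Ptprc, which encodes CD45, stood at 0.19 CPM. Clusters 6 and 7 held 33 and 20 cells and carried 341 and 433 CPM of the endothelial list and 1372 and 1379 CPM of the blood list. The 6 megakaryocyte markers summed to 9822 CPM in cluster 7 and 505 CPM in cluster 6. Mesenchymal and smooth muscle markers led the 22 cells of cluster 4 and the 13 of cluster 5 (1049 and 13531 CPM over 8 genes). Clusters 1 to 3 are called endothelial and clusters 6 and 7 blood below. Gene-assigned reads per cell ran from 123097 to 2870618, with medians of 900286 in Ctrl and 869802 in treated cells.

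Promoters of 4 members are shown, from both directions of the contrast between endothelial and blood cells. Of the members with a RefSeq entry, Cldn5, Amotl1 and Itga1 had the lowest ratio of blood to endothelial level. Itga4 was the only one called higher in blood cells by the stricter rule described below. Its log2 ratio (3.16) was lower than those of the other members called higher, which had no RefSeq entry. Each sequence holds the 250 bases before a RefSeq start site on build GRCm38.p6, given 5′ to 3′ on the gene's strand. The window of Amotl1 lies inside the GENCODE gene model, whose upstream end is at base 14645056. Capitals mark matches, on either strand, to the letters GGAAG, which ETS factors bind, TGTGGT, which RUNX factors bind, AGATAA, which the GATA factors bind, or GGGCGG, which SP factors bind.

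Cldn5, chr16:18776597-18776846, plus strand: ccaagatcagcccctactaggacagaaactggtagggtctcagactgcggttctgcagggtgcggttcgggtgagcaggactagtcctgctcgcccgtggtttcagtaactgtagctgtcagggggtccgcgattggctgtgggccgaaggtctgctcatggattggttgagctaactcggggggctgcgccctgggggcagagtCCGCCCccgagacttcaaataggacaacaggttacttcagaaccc
Amotl1, chr9:14615001-14615250, minus strand: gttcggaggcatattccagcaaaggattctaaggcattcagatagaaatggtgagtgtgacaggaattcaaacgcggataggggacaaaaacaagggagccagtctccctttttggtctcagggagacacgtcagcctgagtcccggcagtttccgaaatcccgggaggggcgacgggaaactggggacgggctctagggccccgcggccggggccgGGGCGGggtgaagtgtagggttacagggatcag
Itga1, chr13:115101965-115102214, minus strand: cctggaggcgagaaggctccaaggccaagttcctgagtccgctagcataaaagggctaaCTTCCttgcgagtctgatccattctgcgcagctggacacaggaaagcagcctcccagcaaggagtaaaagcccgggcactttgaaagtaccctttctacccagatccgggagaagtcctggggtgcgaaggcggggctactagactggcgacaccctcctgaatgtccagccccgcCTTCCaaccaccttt
Itga4, chr2:79255176-79255425, plus strand: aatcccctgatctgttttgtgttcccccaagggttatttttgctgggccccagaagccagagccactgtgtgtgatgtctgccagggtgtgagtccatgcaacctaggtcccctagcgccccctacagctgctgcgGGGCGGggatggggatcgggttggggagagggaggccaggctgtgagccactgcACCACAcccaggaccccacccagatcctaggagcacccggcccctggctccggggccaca

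The windows of Cldn5 and Amotl1 each held 1 match to the SP letters, that of Itga1 held 2 matches to the ETS letters, and that of Itga4 held 1 match each to the RUNX and SP letters. A RefSeq promoter was found for 25 of the 39 members. Among 16 members higher in endothelial cells, the ETS letters were in 9, the SP letters in 10, and the RUNX and GATA letters in 0. Of 32851 promoter windows of the same length, 64.07% held the ETS letters, 32.74% the SP letters, 14.05% the RUNX letters and 9.988% the GATA letters. A match is a run of letters and not a shown binding site.

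Endothelial cells used a broad set of alpha chains with 1 dominant beta chain. Compared per kilobase of exon, which allows levels of different genes to be set side by side, Itga5 of the fibronectin receptor made up 40.6% of the summed alpha chain level in clusters 1 to 3. The laminin-binding chains Itga6 and Itga3 followed with 21.8% and 14.9%, then Itga9 with 10.3% and the collagen-binding Itga1 with 4.58%. Itgb1, the common partner of all of these, made up 98.05% of the beta chain level. Every other beta chain of the list stood at 1.23 CPM per kilobase or less there, against 176.6 for Itgb1.

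Blood cells carried fewer of the listed alpha chains and more kinds of beta chain. In cluster 6 the leading listed alpha chain per kilobase was Itga4, the chain of the receptor for VCAM1 and fibronectin. It made up 36.5% of the sum of the listed alpha chains. Itgal, which pairs with Itgb2 to form the leukocyte receptor for ICAMs, followed with 29.6%, and the beta sum was split into 69.4% Itgb1, 23.4% Itgb2 and 6.31% Itgb3. In cluster 7 Itgb3, the beta chain of the platelet fibrinogen receptor, led with 58.1% of the beta sum, ahead of 27.8% Itgb1 and 13.5% Itgb2. Itga6 led the listed alpha chains of cluster 7 with 35.9%. Itga2b, the usual partner of Itgb3 in platelets, is not on the list and not part of these sums. It stood at 1149.5 CPM in cluster 7 and 164.6 CPM in cluster 6, above the 131.98 CPM of Itga4 there.

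**Figure D1:**
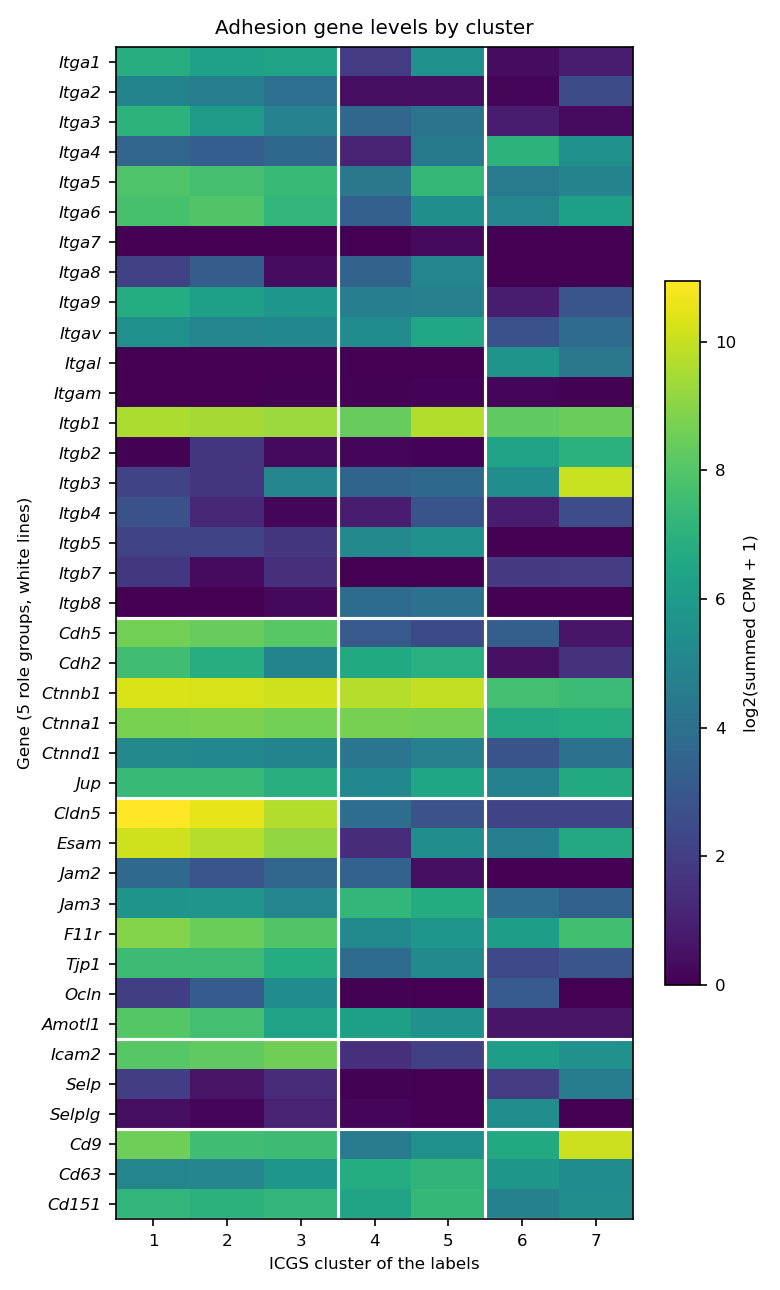
Level of each of the 39 genes (rows, in 5 role groups divided by white lines) in each of the 7 ICGS clusters (columns), as log2 of the CPM summed over the cells of a cluster plus 1. Cldn5 and Ctnnb1 are brightest in clusters 1 to 3, Itgb3 and Cd9 in cluster 7, and the lower junctional rows are dark in clusters 6 and 7.

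The switch between endothelial and blood clusters was described by the log2 ratio of summed CPM, with 1 CPM added, and a gene was called where the ratio reached 1 in the same direction in Ctrl and in treated cells separately. The clusters were drawn from the expression of these cells, so a ratio between them describes the clusters and is no test. Of the 34 measured members, 24 were called lower in blood cells, against 18% of all measured genes, and 5 were called higher, against 7.97% of all measured genes. At a ratio of 2 the counts were 15 lower (background 8.75%) and 5 higher (background 2.49%). Itgal had a read in 6.42% of all cells and stood at 0.0142 CPM in clusters 1 to 3. It thus passed the 5% filter through blood cells, and its call is not independent of that filter. With a filter at 20% of cells, 2 members were called higher at a ratio of 1 (background 7.62%). The median log2 ratio of the members was -2.11, against -0.02 over all measured genes. The junctional genes had the lowest median (-3.82, or -4.48 with Jam2 at its bound), followed by cadherins and catenins (-2.38) and integrins (-2.13). Fewer cells with a transcript and less transcript per cell are not separated by a summed level.

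The 5 members higher in blood cells were Itga4, Itgal, Itgb2, Itgb3 and Selplg, and their distribution differed between clusters 6 and 7. Itga4 ran from 0 to 547 CPM per cell in cluster 6 with a median of 121.6, and from 0 to 356 CPM with a median of 0 in clusters 1 to 3. The summed level of Itga4 was 131.98 CPM in cluster 6 (95% Poisson interval 128.1 to 135.9), 43.4 CPM in cluster 7 and 10.2 CPM in clusters 1 to 3. Most cells of cluster 6 thus lay above most endothelial cells, while the ranges overlapped because some endothelial cells carried Itga4 at a like level. Exons of Itga4 overlap those of Cerkl on the other strand over 1124 bases, and the Smart-seq2 protocol does not mark strand.

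Itgal was at 50.2 CPM in cluster 6 and 19.1 CPM in cluster 7, with a highest endothelial cell of 1.56 CPM. Itgb2 ran from 0 to 268 CPM in cluster 6 with a median of 48.4, from 0 to 303 CPM in cluster 7 with a median of 105.99, and had a median of 0 in clusters 1 to 3. A level of 10 CPM or more of Itgb2 was seen in 1 Ctrl and 1 treated cell of the 395 endothelial cells, against 11 of 22 Ctrl and 26 of 31 treated blood cells. This level was chosen after the data were seen, because traces of reads were common.

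Itgb3 separated the blood clusters from each other. Its cells ran from 190.2 to 2299.5 CPM in cluster 7 with a median of 800.03, and from 0 to 210.9 CPM in cluster 6 with a median of 0. The log2 ratio over endothelial cells was 6.98 for cluster 7 and 2.32 for cluster 6. Selplg, the ligand of P-selectin on leukocytes, went the other way. It stood at 39.6 CPM in cluster 6, with cells from 0 to 158.03 CPM and a median of 1.17, and had 0 reads in the 20 cells of cluster 7, where a count of 0 allows up to 0.147 CPM. Cd9, a tetraspanin of platelets and endothelium, was not called over both clusters (log2 ratio 0.78) but stood at 1094 CPM in cluster 7, 98.3 CPM in cluster 6 and 275 CPM in clusters 1 to 3. All cells of cluster 7 carried Cd9 at 219.9 CPM or more, a lowest value close to the endothelial median of 221.01 CPM.

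**Figure D2:**
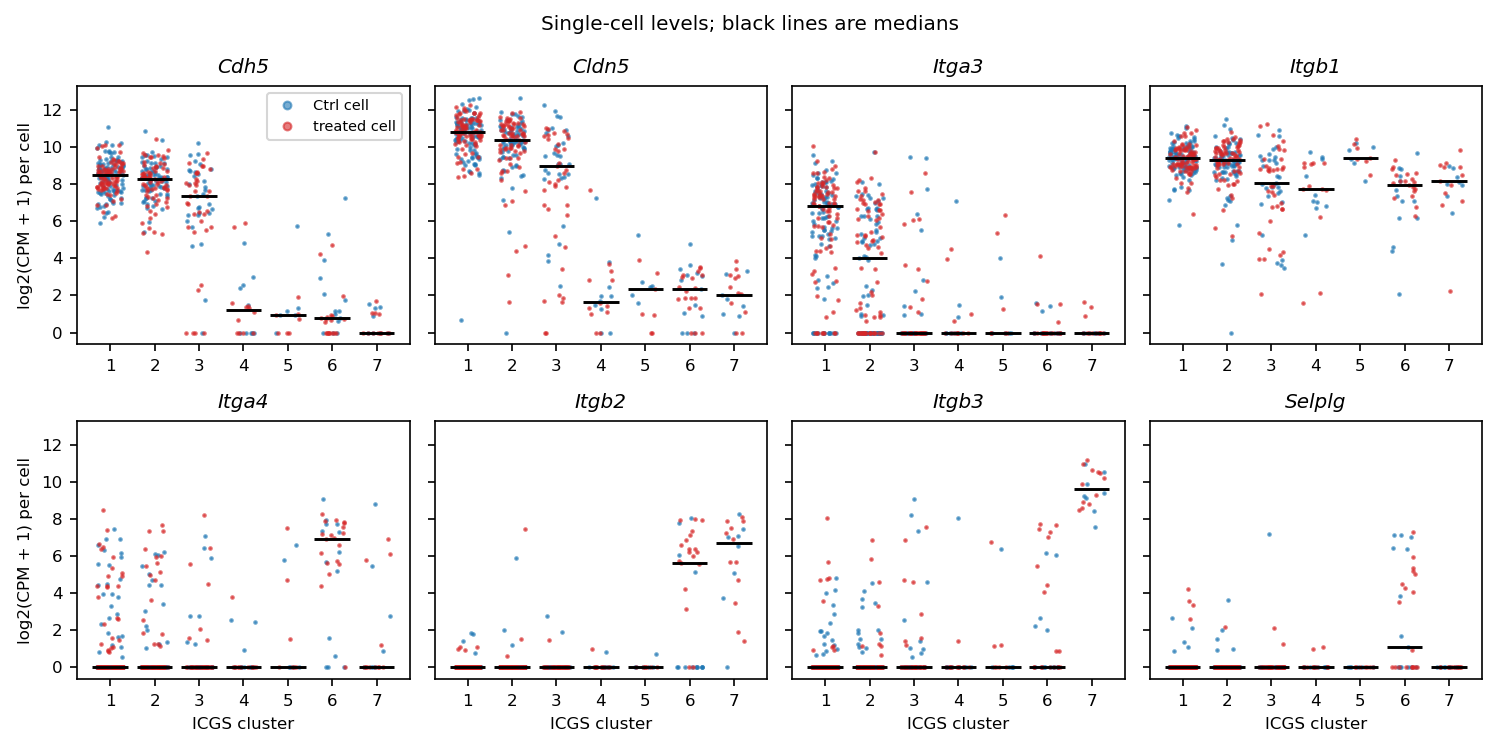
Level of 8 genes in every cell, as log2(CPM + 1), by ICGS cluster; each point is a Ctrl (blue) or treated (red) cell and black lines are medians over cells. Cdh5 and Cldn5 are low outside clusters 1 to 3, Itga3 is highest in cluster 1, Itgb1 is present in every cluster, and Itgb3 is high in all 20 cells of cluster 7.

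Among the 24 members higher in endothelial cells, the tight junction gene Cldn5 had the lowest blood to endothelial ratio. It reached 1633 CPM in clusters 1 to 3, where cells ran from 0 to 6484 CPM with a median of 1538, and stood at 3.74 and 3.57 CPM in clusters 6 and 7. The highest blood cell had 26.7 CPM, far under the endothelial median, and the log2 ratio was -8.51 in Ctrl and -8.43 in treated cells. A read of Cldn5 was nonetheless found in 81.8% and 85% of the cells of clusters 6 and 7, and in 33.3% and 35% after each cell was thinned to 100000 reads, so a share of cells with any read overstates its presence there.

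Of the other junctional genes, some were near 0 in blood cells and others were lower but still present. Amotl1, a scaffold of the angiomotin family, stood at 214.5 CPM in clusters 1 to 3 and at 0.565 and 0.488 CPM in clusters 6 and 7. Jam2 had 0 reads in 53 blood cells and 10.2 CPM in endothelial cells, at least 183.2-fold higher against a floor of 3 counts over the blood cells. The scaffold Tjp1 stood at 168.5 CPM in clusters 1 to 3 and 4.28 and 6.45 CPM in clusters 6 and 7. F11r, which encodes the junctional adhesion molecule JAM-A and is also a platelet protein, was at 404 CPM in clusters 1 to 3, 69.5 CPM in cluster 6 and 198.7 CPM in cluster 7. Esam was at 953, 25.3 and 97.4 CPM, and Jam3 at 47.9, 14.1 and 9.67 CPM. Ocln was rare, with a read in 7.45% of all cells, and was not called.

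The adherens junction genes differed unequally between the clusters. Cdh5, the endothelial cadherin, ran from 0 to 2193 CPM with a median of 313 in clusters 1 to 3, and from 0 to 150.5 CPM with a median of 0.75 in cluster 6. Its summed level was 352 CPM against 8.83 and 0.537 CPM in clusters 6 and 7. Cdh2, the N-cadherin of endothelial contacts with mural cells, was at 139.4 CPM against 0.386 and 1.91 CPM. Cdh2 thus had the lower ratio of the pair in cluster 6 (-6.66, against -5.17 for Cdh5) and Cdh5 in cluster 7 (-7.84, against -5.60 for Cdh2). The catenins, which also serve outside junctions, differed less. Ctnnb1 was at 1246 CPM in clusters 1 to 3 and 203.3 and 173.9 CPM in clusters 6 and 7, and Ctnna1 at 424 CPM against 96.2 and 108.4 CPM. Ctnnd1 had a log2 ratio of -1.68, though 4482 bases of its exons overlap another gene model, Gm28635. Jup, plakoglobin, was not called, with log2 ratios of -2.59 in Ctrl and -0.98 in treated cells.

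Endothelial alpha chains were lower in blood cells to different degrees. Itga3 ran from 0 to 1047 CPM per cell in clusters 1 to 3 with a median of 34.5, and had a median of 0 in clusters 6 and 7. The log2 ratios of Itga3 and Itga1 were -5.90 and -6.01, and those of Itga9, Itga2 and Itga5 were -4.49, -3.26 and -3.09. Itga6 and Itgav were nearer (-2.18 and -2.01), and Itgb1 was the nearest of those called (-1.17). Itga8 had 0 reads in blood cells and 4.78 CPM in endothelial cells, at least 86.2-fold higher against the same floor. Itgb5 was a gene of clusters 4 and 5, at 38.6 CPM there, 3.46 CPM in clusters 1 to 3 and 0.0185 CPM in clusters 6 and 7. Itgb8 was likewise highest in clusters 4 and 5, at 14.6 CPM. Itgb4, the partner of Itga6 in hemidesmosomes, was low in both kinds of cell, at 3.28 CPM in clusters 1 to 3 and 2.38 CPM in clusters 6 and 7, and was not called.

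Of the other tetraspanins, which gather integrins in the membrane, Cd151 stood at 138.9 CPM in clusters 1 to 3 and at 27.3 and 39.7 CPM in clusters 6 and 7. Cd63, also a protein of lysosomes, was at 34.2, 54.1 and 38.4 CPM in the same order and was highest in clusters 4 and 5, at 122.98 CPM. Among the members under the filter, Selp, the P-selectin of platelets and endothelium, was at 23.3 CPM in cluster 7, with 40.4 CPM in its 12 treated cells and 0 reads in its 8 Ctrl cells, against 1.87 CPM in clusters 1 to 3. Itgb7 was at 1.58 CPM in clusters 1 to 3 and 2.64 CPM in clusters 6 and 7, Itgam was at 0.0199 and 0.0924 CPM, and Itga7 had 3 reads, all of them in cluster 5.

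**Figure D3:**
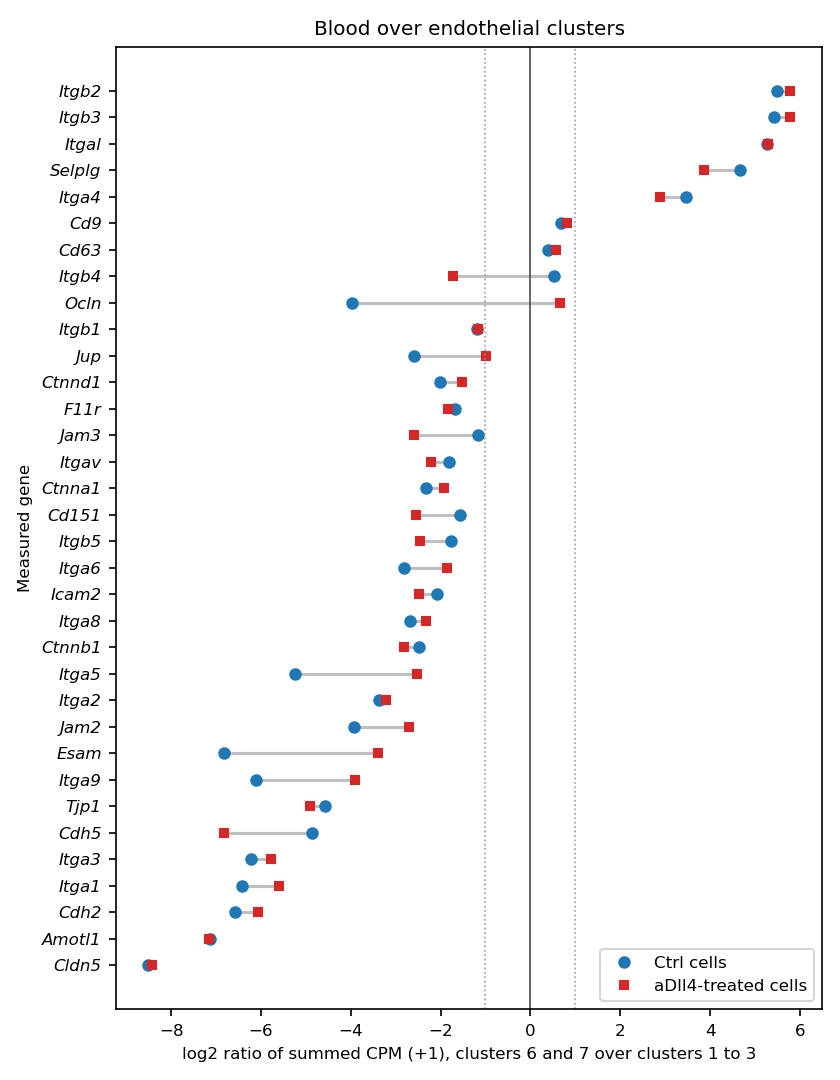
Log2 ratio of summed CPM (1 CPM added) of clusters 6 and 7 over clusters 1 to 3 for the 34 measured genes, in Ctrl cells (circles) and treated cells (squares) separately; dotted lines mark a ratio of 1 and -1. Itgb2, Itgb3, Itgal, Selplg and Itga4 lie at the right in both treatments, Cldn5 and Amotl1 at the far left, and Ocln and Esam differ most between the treatments.

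Levels also differed within the endothelial clusters. From cluster 1 through 2 to 3, Cldn5 stood at 1963, 1495 and 825 CPM, Cdh2 at 190.8, 111.4 and 30.02 CPM, Itga3 at 133.04, 63.1 and 27.9 CPM and Amotl1 at 261, 203.2 and 78.9 CPM. Cdh5 was flatter, at 385, 338 and 275 CPM. Icam2, a ligand of the Itgal and Itgb2 receptor, ran the other way at 274, 311 and 374 CPM. Itgb3 and Ocln were highest in cluster 3, at 32.3 and 38.8 CPM, where both had a median over cells of 0 and so rested on few cells. The median number of the 12 listed alpha chains with a read per thinned cell was 6, 5 and 3 in these clusters, and cluster 3 also had the lowest median depth (669599 reads) before thinning.

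Alpha and beta chains met in the same cell in cluster-specific sets. After thinning, both chains of the Itga5 and Itgb1 fibronectin receptor were read in 87.8% of endothelial cells (exact 95% interval 84.2 to 90.9%), 36.4% of cluster 6 (20.4 to 54.9%) and 50% of cluster 7. For Itga4 and Itgb1 the order was reversed, with 14.9% of endothelial cells (11.6 to 18.8%), 81.8% of cluster 6 (64.5 to 93.02%) and 25% of cluster 7 (8.66 to 49.1%). These intervals treat cells as independent draws and leave out the spread between embryos. They do not overlap between endothelial cells and cluster 6 for either pair. Itgal and Itgb2 were read together in 10 of 33 cells of cluster 6, 6 of 20 cells of cluster 7 and 0 of 395 endothelial cells. Without thinning the shares of Itga4 with Itgb1 were 25.1%, 87.9% and 40%, and those of Itgal with Itgb2 were 0, 39.4% and 35%.

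Several pairs of matrix receptors were read in a larger share of endothelial than of blood cells. Itga9 with Itgb1 was read in 72.9% of endothelial cells and 3.03% of cluster 6, Itga1 with Itgb1 in 63.8% and 6.06%, and Itga3 with Itgb1 in 61.5% and 6.06%. They were not confined to endothelial cells. Over the 35 cells of clusters 4 and 5 these pairs were read in 28.6%, 28.6% and 22.9%, and Itga1 with Itgb1 in 61.5% of cluster 5. Itgav with Itgb5 was read in 40% of clusters 4 and 5 and 3.29% of endothelial cells. The Itga6 and Itgb1 laminin receptor was common in endothelial and blood cells, in 89.9% of endothelial cells, 54.5% of cluster 6 and 80% of cluster 7. Itgav with Itgb3, the vitronectin receptor, was read in 30% of cluster 7, the same share as Itgav with Itgb1. The median cell had 1 beta chain in clusters 1 to 3, 2 in cluster 6 and 3 in cluster 7, and 6 of the 8 junctional genes in clusters 1 to 3 against 2 in each blood cluster.

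**Figure D4:**
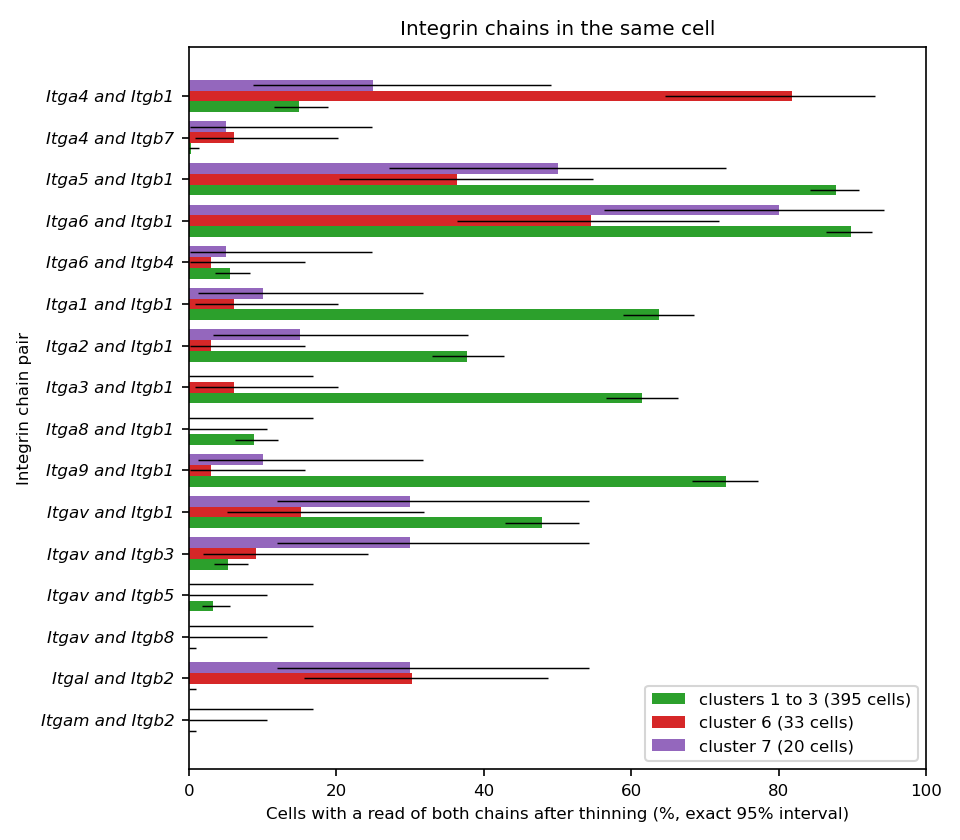
Share of cells with a read of both chains of 16 integrin pairs after each cell was thinned to 100000 reads, in clusters 1 to 3 (green, 395 cells), cluster 6 (red, 33 cells) and cluster 7 (purple, 20 cells); lines are exact 95% intervals. Itga4 with Itgb1 is most frequent in cluster 6 (81.8%), and Itgal with Itgb2 is at 0 in clusters 1 to 3.

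Across the 395 endothelial cells, the levels of 21 members were compared in 210 pairs. The most alike were Cldn5 and Esam (Spearman rho 0.42), Cldn5 and F11r (0.41) and Esam and F11r (0.36), followed by Itgb1 and Esam (0.36) and Itga3 and Cd9 (0.34). The median rho was 0.11. All points share the cells' libraries and depth, so these values are a description.

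The comparison of treated with Ctrl cells asked whether the adhesion genes differed with aDll4. A gene was called where the log2 ratio over all cells reached 0.5 and had the same sign in both blocks of library numbers. The labels give a number for each library and name no batch, and the blocks were drawn from a gap in these numbers. Few members were called. Itgb2 and Itgb3 were higher in treated cells, 2 of 34 members against a background of 4.77%, and Itga1, Jam2 and Ocln were lower, 3 of 34 against 5.22%. The median ratio was -0.06 over the members, with 12 above and 22 below 0. Over all measured genes it was 0.01, with 7933 above and 7271 below 0. Of the 34 members 2, Ctnnb1 and Esam, were below 0 in 6 of 6 runs of library numbers, against 1.97% of all measured genes, and 0 were above 0 in all runs, against 2.33%.

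The groups also differed in sex. In block 1, 89.3% of treated cells had reads of Y-linked genes and 0 had reads of Xist, while in block 2, 61 of 66 treated cells had Xist and 0 had Y-linked genes. Ctrl cells were mixed, with 48.3% Xist-positive and 43.8% Y-positive cells in block 1. Treatment and embryo therefore cannot be told apart, and values between cells of the same sex are given beside the results for the members described below. Between such cells 5 members were called higher, Itga4, Itgal, Itgb2, Itgb3 and Itgb5, against 10.3% of all measured genes, and 7 lower, Itga1, Itga8, Itgb4, Jup, Esam, Tjp1 and Ocln, against 6.37%. Blood clusters made up 3.92% of these Ctrl cells and 12.7% of these treated cells, and their part in the result was not tested.

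Itga1, a collagen-binding chain, had a level of 91.8 CPM in Ctrl cells, against 59.9 CPM with treatment. By run of library numbers the Ctrl levels were 53.9, 118.2, 74.01, 89.2, 112.2 and 79.9 CPM and the treated levels 54.2, 61.2, 56.98, 56.7, 78.7 and 49.97 CPM. Treated runs were the lower ones in 5 of 6, though the ranges overlapped. This gave a log2 ratio of -0.61 over all cells, -0.59 and -0.66 within blocks 1 and 2, and -0.28, -0.52 and -1.78 within clusters 1, 2 and 3. Between cells of the same sex it was -0.81 for block 1 but -0.07 for block 2. The share of endothelial cells carrying Itga1 was not lower: 62.7% of Ctrl and 66.5% of treated cells of clusters 1 to 3 had a read after thinning, and the highest cells had 1389 and 575 CPM. Exons of Itga1 overlap another gene model, Gm49395, over 685 bases.

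Jam2, a junctional adhesion molecule of endothelium, had a level of 12.4 CPM in Ctrl cells, against 4.63 CPM with treatment. By run the Ctrl levels were 11.3, 15.6, 19.9, 0.827, 17.2 and 0.508 CPM and the treated levels 3.15, 0.582, 4.72, 5.86, 4.38 and 9.44 CPM. Jam2 was lower in 4 and higher in 2 of the runs, and cells of the same sex gave a log2 ratio of -1.26 for block 1 but 0.49 for block 2. Ocln, occludin, was at 12.3 and 4.73 CPM, a log2 ratio of -1.21 (-1.49 between cells of the same sex), and much of the Ctrl sum came from run 5 (39.4 CPM). Without run 5 the ratios of Jam2 and Ocln were -1.09 and -0.05 and neither was called.

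Itgb2 and Itgb3, both blood genes, were higher in treated cells as a whole. Itgb2 summed to 7.32 CPM over Ctrl cells and to 17.4 CPM over treated ones, with run levels of 2.66, 11.1, 15.1, 0.0276, 0.450 and 20.2 CPM in Ctrl and 25.2, 11.6, 12.96, 14.2, 23.9 and 16.7 CPM in treated cells. Ctrl runs spread over the whole range while treated runs stayed between 11.6 and 25.2 CPM, and 4 of 6 ratios were above 0. Itgb3 was at 40.1 and 76.4 CPM, with 3 of 6 ratios above 0. Between cells of the same sex the log2 ratio of Itgb2 was 1.57 (2.63 and 0.62 by block) and that of Itgb3 1.68 (3.91 and 0.45). Within clusters 1 to 3 the log2 ratios of Itgb2 and Itgb3 were 0.31 and 0.06, and neither was called there. Without run 5 the ratios were 0.73 and 0.94, and neither was called over all cells because block 2, then run 6 alone, had the opposite sign. Beside them, blood clusters made up 9.21% of Ctrl and 12.7% of treated cells, and the 6 megakaryocyte markers, all of them higher with treatment, summed to 338 and 689.7 CPM. The part of these in the result was not tested.

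Within the endothelial clusters the same members were lower, Itga1, Jam2 and Ocln, 3 of 34 against a background of 6.95%, and Itgb5 alone was higher, against 4.81%. Between cells of the same sex in these clusters, Itga1 was at -0.61 and 0.21 by block. Jam2 was at -1.03 and 0.55 and Ocln at -1.44 and -1.79. Itgb5 had a log2 ratio of 0.63 from 3.46 CPM over all cells of clusters 1 to 3, with 3 runs above and 3 below 0, and 1.28 between cells of the same sex over all clusters. Beside it, the 8 mesenchymal and smooth muscle markers summed to 61.4 CPM over Ctrl and 97.2 CPM over treated cells of clusters 1 to 3, 6 of 8 higher, and their part in the result was not tested. Jup and Esam were below 0 in 6 of 6 runs there, against 1.89% of all measured genes, and 0 members were above 0 in all runs, against 2.18%.

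Esam, an adhesion molecule of endothelial tight junctions and platelets, had a level of 866 CPM in Ctrl cells, against 666 CPM with treatment. Its run levels were 904, 879.8, 815, 1053.5, 825 and 638 CPM in Ctrl and 643, 714, 669.6, 755, 578 and 612 CPM in treated cells. All 6 treated runs were below the Ctrl run of the same numbers, by ratios from -0.51 to -0.06. The log2 ratio was -0.38 over all cells, -0.26 within clusters 1 to 3, both short of the call, and -0.54 between cells of the same sex, with -0.53 and -0.56 by block, which reached it. Jup had a ratio of -0.40, below 0 in 5 of 6 runs over all cells, and -0.61 between cells of the same sex, which reached the call. Tjp1, the tight junction scaffold, was at 158.2 and 114.8 CPM, a ratio of -0.46 (-0.48 and -0.36 by block) and -0.59 between cells of the same sex. These same-sex ratios are over all clusters. Within clusters 1 to 3 they were, by block, -0.25 and -0.30 for Esam, -0.41 and -0.63 for Jup and -0.35 and -0.20 for Tjp1. Beside these genes, the 8 endothelial markers summed to 5145 CPM over Ctrl and 4434 CPM over treated cells, 7 of 8 lower, and to 6085 and 5769.7 CPM within clusters 1 to 3. Their part in the result was not tested.

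Of the 8 junctional genes 7 were below 0 over all cells (median -0.22) and 4 within clusters 1 to 3 (median -0.09). Of the 6 cadherins and catenins 5 were below 0 over all cells (median -0.12) and 3 within clusters 1 to 3 (median -0.01). Beside them, 7271 of all 15204 measured genes were below 0 over all cells and 7568 within clusters 1 to 3. Cdh5 had a log2 ratio of -0.19 over all cells and -0.04 within clusters 1 to 3, and Cldn5 had -0.06 and 0.08. By block Cldn5 was at 0.09 and -0.50, and between cells of the same sex Cdh5 was at -0.30 and Cldn5 at -0.12. Itgb1 stood at 653 CPM without and 663 CPM with treatment, a ratio of 0.02, with -0.11 and 0.24 by block and -0.08 between cells of the same sex. Itga4 had a ratio of 0.37 over all cells, and within clusters 1 to 3 its ratios by block were 0.86 and -0.67. Between cells of the same sex Itga4 was at 1.72 (2.15 and 0.89 by block), which reached the call, and within clusters 1 to 3 at 1.84 in each block. The last value rests on 21 Ctrl and 44 treated cells in block 2. After thinning, Itga4 was read in only 14.9% of all Ctrl and 18.75% of all treated endothelial cells of block 2. With 1 sample per treatment no interval covers the spread between embryos for these ratios.

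**Figure D5:**
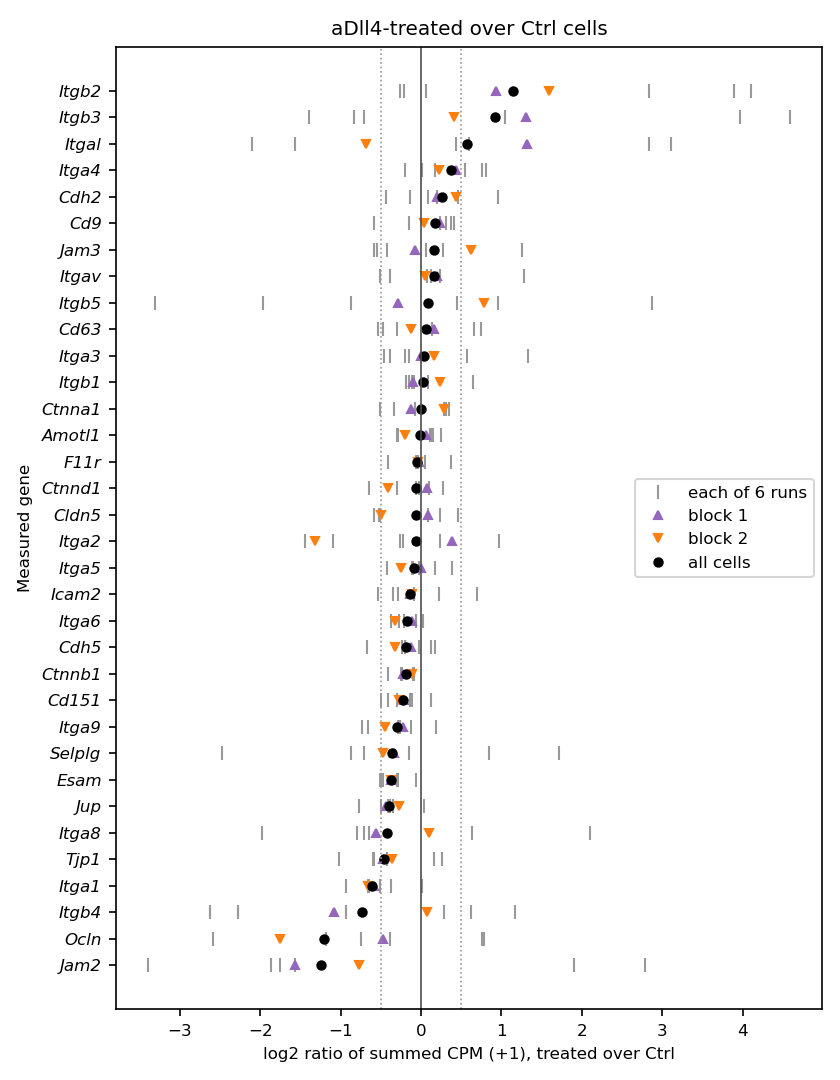
Log2 ratio of summed CPM (1 CPM added), treated over Ctrl, for the 34 measured genes: all cells (black), block 1 (purple), block 2 (orange) and each of 6 runs of library numbers (grey ticks); dotted lines mark 0.5 and -0.5. Runs of rare genes such as Jam2 and Itgb3 spread over several log2 units, while those of Esam all lie below 0.

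In the 53 blood cells, 22 Ctrl and 31 treated, some members called higher in endothelial cells were higher with treatment and others lower. Of these members Esam, Itga5 and Itga9 had the highest log2 ratios (3.17, 2.74 and 2.05). By block Itga9 was at 0.56 and 3.37, and in block 2 only 1 of 9 treated cells had a read of it after thinning. Cdh5, Jam3 and Cd151 had the lowest (-2.01, -1.37 and -1.09). The share of all genes at such ratios in these cells was not counted. Itga5 ran from 0 to 34.02 CPM in Ctrl with a median of 0.778 and from 0 to 190.9 CPM in treated cells with a median of 11.7. The ranges overlapped at the low end, and 3 of 22 Ctrl and 17 of 31 treated cells had 10 CPM or more. The log2 ratio of Itga5 was 2.74, and by block 2.37 and 3.26. Esam ran from 0 to 65.4 CPM in Ctrl and from 0 to 503 CPM in treated cells, with medians of 2.315 and 3.79 CPM, so its ratio of 3.17 rested on the 12 of 31 treated cells at 10 CPM or more, against 5 of 22 Ctrl cells. Jup, which was not called between endothelial and blood cells, reached 10 CPM in 7 of 22 Ctrl and 19 of 31 treated cells. Over all blood cells the difference lay in block 2, with 1 of 9 and 8 of 9 cells and a log2 ratio of 4.56. Block 1 had 6 of 13 and 11 of 22 cells and a ratio of 0.15. Between blood cells of the same sex Jup was at 4.54 in block 1 and 5.52 in block 2, resting on 2 Ctrl cells per block.

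Other junction genes gave unlike values in blood cells. Ocln had 0 reads in the 22 Ctrl cells and reached 10 CPM in 2 of 31 treated cells. Cldn5 had a log2 ratio of 0.15 and Cdh5 -2.01, the latter with a highest Ctrl cell of 150.5 CPM and a highest treated cell of 24.9 CPM. The endothelial marker list summed to 406 CPM over Ctrl and 357 CPM over treated blood cells. Itgb2 reached 10 CPM in 4 of 14 Ctrl and 16 of 19 treated cells of cluster 6, and in 7 of 8 and 10 of 12 cells of cluster 7. Only 2 Ctrl blood cells in each block had the sex of the treated cells of that block, so a same-sex ratio within blood cells rests on 2 Ctrl cells per block. On these few cells Cdh5 was at 0.63 and 2.06 and Cd151 at 4.17 and 1.58 by block, so neither had the direction seen over all blood cells. Jam3 was at -1.09 and -1.20, Itga5 at 2.28 and 5.30, Esam at 4.46 and 5.95 and Itga9 at 0.37 and 3.61. Itgb2 was at 2.75 and -0.26.

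A further 85 adhesion genes, chosen as the wider pathway, gave 71 measured genes, of which 13 were called higher in blood cells, against 7.97% of all measured genes, and 35 lower, against 18%. Fermt3, the kindlin that activates integrins in blood cells, was at 1.95 CPM in clusters 1 to 3 and 605 and 1659.7 CPM in clusters 6 and 7, a log2 ratio of 8.41. Tspan32 and Itga2b had ratios of 7.83 and 5.97. In the other direction Mcam, an endothelial adhesion molecule, had a ratio of -7.69, Parva, a parvin that links integrins to actin, -6.53, and the protocadherin Pcdh17 -6.45. Of the 71, 4 were called higher in treated cells, against 4.77% of all measured genes, and 2 lower, against 5.22%, shares near or below the background. Itga2b, Icam4 and Tspan32 had ratios of 1.12, 0.94 and 0.85, and Marveld2, a tight junction protein, and Ptprb, a phosphatase bound to VE-cadherin, had -0.71 and -0.63. Itga2b is also 1 of the 6 megakaryocyte markers.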

How the data were processed

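Values are whole-number read counts per gene and cell as deposited by the authors, without normalization, for 483 cells. The submitters' processing notes name the genome build mm10 and, as tools, the aligner GSNAP and the read counter HTSeq 0.6.0, with no settings. The annotation release was not given in the sources used here. Symbols, exon lengths and positions came from GENCODE M21, and promoters from RefSeq on GRCm38.p6.

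Treatments and clusters came from the labels. Library numbers fall in 2 blocks and were divided into 6 runs of 96 consecutive numbers. Levels are counts summed over cells and scaled to CPM, with exact Poisson 95% intervals, and ratios are log2 with 1 CPM added. Shares were taken after thinning each cell to 100000 reads, where 1 read is 10 CPM, with Clopper-Pearson 95% intervals. The Poisson intervals treat reads as independent, although reads carry no molecular identifiers, and leave out the spread between cells. The share intervals treat cells as independent draws. Neither covers the spread between embryos. All cells were kept, depth ran from 123097 to 2870618 reads, and doublets were not called. Sex was read from 10 or more reads of Xist or of Ddx3y, Eif2s3y, Kdm5d and Uty.

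All 39 members were described, and of the other adhesion genes the 3 largest ratios among those called in each direction. The members and lists were chosen with earlier results of these data known. Calls were checked on simulated data. Python 3.11.15, numpy 2.4.6, pandas 2.3.3, scipy 1.17.1 and matplotlib 3.10.9 were used. Alternatives were the pseudocount, scaling, filter, thinning, single runs, blocks, clusters and sex.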

Additional observations from a re-analysis of the deposited data

Results flagged for a closer look

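Itgal, the alpha chain of the leukocyte integrin, pointed opposite ways in the 2 blocks of library numbers. Its treated to Ctrl log2 ratio was 1.32 for block 1 but -0.68 for block 2. The difference between the blocks was not tested. Between cells of the same sex over all clusters the ratios were 1.76 and 2.00. Within blood cells of the same sex they were -0.52 and 2.54, resting on 2 Ctrl cells per block. Itgal was at 0.0142 CPM in clusters 1 to 3. Blood clusters made up 3.92% of the same-sex Ctrl cells and 12.7% of the same-sex treated cells, and their part was not tested. Itgal had a read in 6.42% of all cells.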

How the results depend on the processing

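No paired analysis was possible because each treatment is 1 sample and the numbers shared by Ctrl and treated labels only name cells. The count of members higher in treated cells was 4 without the filter on genes (adding Itgb7 and Selp, background 2.57%), 1 for genes with a read in at least 20% of cells (Itgb3, background 2.69%), 0 without run 5 (4.69%), 1 in clusters 1 to 3 (Itgb5, 4.81%), 1 with both treatments weighted to the same cluster shares (Itgb2, 4.07%), and 5 between cells of the same sex (10.3%). Without 1 run at a time it ranged from 0 to 3. The count lower in treated cells was 1 with the 20% filter (Itga1, 3.52%) and 7 between cells of the same sex (6.37%). Itga1 was called in every setting run. Cells of the same sex within clusters 1 to 3 were not a setting, and there Itga1 was at -0.61 and 0.21 by block. The count higher in blood cells was 2 with the 20% filter (7.62%), which leaves out genes read in few cells. Selplg, called higher in blood cells, had a log2 ratio of -0.45 where cluster 7 alone stood for blood, where it had 0 reads. Of 636 values of the called members under the alternatives, this was the 1 that changed sign, while members that were not called changed sign more often. Without thinning, 18 of 48 shares of chain pairs moved beyond their interval. Leaving out blood cells at 10 CPM or more of Cdh5 was chosen after the data were seen and gave 5 higher (8.2%) and 25 lower (19.1%). Depth limits the rare genes most, and the small number of blood cells (53) limits every ratio within them.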
